A study of Mus musculus with 32 samples.

Results

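The genes followed here are 10 targets of Wnt/beta-catenin signalling, Axin2, Lef1, Sp5, Nkd1, Notum, Tcf7, Rnf43, Znrf3, Sp8 and Dkk1. They were taken as established targets of the pathway, and each was found by its Ensembl identifier among the 48576 identifiers of the files. RNA was sequenced from forebrain (Fb) and midbrain (Mb) tissue of B6C3F1 mouse embryos at E9.5. In each tissue there were 6 wild-type (WT), 4 TKO_Ex, 3 DKO_Ex and 3 DKO_CD libraries, 32 in all. TKO_Ex embryos lack Cdh6, Cdh8 and Cdh11 and have exencephaly, an open cranial neural tube. DKO_Ex embryos lack Cdh8 and Cdh11 and have exencephaly, and DKO_CD embryos have an elongated Mb (cranial defect) without it. The labels give the DKO_CD deletion as Cdh6/8, whereas the methods give Cdh8/11. All alleles are germline deletions made by CRISPR/Cas9 at the exon with the start codon, so every tissue of a mutant carries them. WT embryos came from WT matings and mutants from matings of triple heterozygotes, so genotype and litter cannot be told apart. Whether each library is 1 embryo is not given in the sources used here, and p-values then measure the spread between these libraries, which may be partly technical.

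In the canonical pathway a Wnt protein binds a Frizzled receptor and an Lrp co-receptor, the complex that destroys beta-catenin is held back, and beta-catenin enters the nucleus, where it joins the Tcf/Lef factors at target genes. Many targets act back on the pathway, so their mRNA levels are widely used as a readout of it. In the embryonic brain Wnt1 and Wnt3a are made along the dorsal midline and at the border of midbrain and hindbrain, while inhibitors secreted at the front of the embryo hold the pathway back in the early forebrain.

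The deposited values are FPKM, that is fragments per kilobase of transcript scaled to the mapped fragments of the library, so levels of different genes can be compared per length. The step between low values gave an estimated 2.08 to 3.44 M fragments per library (median 2.76). The 12 DKO files carry headings that disagree with their records, each giving the other DKO group. Groups were taken from the headings, which name the deleted genes and not the phenotype. Files headed with Cdh8 and Cdh11 were taken as DKO_Ex, and those headed with Cdh6 and Cdh8 as DKO_CD. The grouping by record exchanges DKO_Ex and DKO_CD. By the headings, Cdh6 was at 1.86 to 3.12 FPKM in DKO_Ex Mb and at 1.29 to 2.11 in DKO_CD Mb, and at 3.62 to 4.34 and 1.72 to 3.43 in the Fb. Cdh11 was at 17.6 to 18.7 in DKO_Ex Mb and at 16.6 to 27.2 in DKO_CD Mb, and at 17.1 to 18.7 and 12.7 to 25.3 in the Fb. Which grouping is right was not settled by these levels. Tissue labels were checked against marker genes. The summed FPKM of 7 forebrain markers (Six3, Lhx2 and others) was 151 to 298 in Fb and 6.27 to 65.4 in Mb libraries, and that of 7 midbrain and isthmus markers (En1, En2 and others) was 15.7 to 47.5 in Fb and 36.5 to 219 in Mb. The Mb library at 36.5 was WT replicate 5, which also had the highest forebrain sum of the Mb libraries (65.4), so it stands apart from its group. Of the targeted genes, Cdh6 was at 0.34 to 0.39 FPKM in TKO_Ex Mb replicates 1, 2 and 4 but at 3.10 in the library labelled TKO_Ex Mb replicate 3, within the 1.04 to 3.55 of WT Mb. In the Fb the replicate with that number was at 3.74 and the others at 0.57 to 1.84 (WT 2.04 to 4.0). Cdh8 ranged from 1.14 to 10.1 in WT Mb and from 0.85 to 2.49 in the Mb of the mutants, and Cdh11 from 17.9 to 28.7 in WT Mb and from 14.5 to 16.6 in TKO_Ex Mb. Small deletions at the start codon leave most of the transcript, so these levels do not test the deletions themselves. In the Mb both DKO groups (1.86 to 3.12 and 1.29 to 2.11) had Cdh6 above TKO_Ex replicates 1, 2 and 4 (0.34 to 0.39). Which deletion DKO_CD carries was not tested. DKO_CD Fb replicate 2 also stands apart, with the lowest forebrain (151), mesenchyme (66.2) and endothelium (11.5) sums of the Fb libraries and a surface ectoderm sum of 210 against 93.6 and 77.2 in the other libraries of its group. Where leaving out these libraries changes a call or an order, the value without them is given.

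In WT most of the targets tested were higher in the Mb than in the Fb. Of the 10 targets, 9 passed the filter of a mean of 1 FPKM over the libraries compared, and 6 of these were higher in the Mb at an adjusted p under 0.05 (limma on log2(FPKM + 1), Benjamini-Hochberg over 13344 genes). None was lower. Over all genes tested, 4.66% were called higher in the Mb. The 6 were Axin2, Sp5, Nkd1, Notum, Tcf7 and Znrf3. The median difference over the 9 targets was 0.62, against -0.003 over all genes tested. Lef1, Sp8 and Dkk1 did not pass the test, and Rnf43 was too low to enter it. The filter matters most for Notum, which has a mean under 1 FPKM in the Fb and entered through its level in the Mb. All differences are log2(FPKM + 1) differences, so changes of genes at low FPKM come out too small. In bulk tissue, fewer cells of a type and less RNA per cell cannot be told apart.

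**Figure D1:**
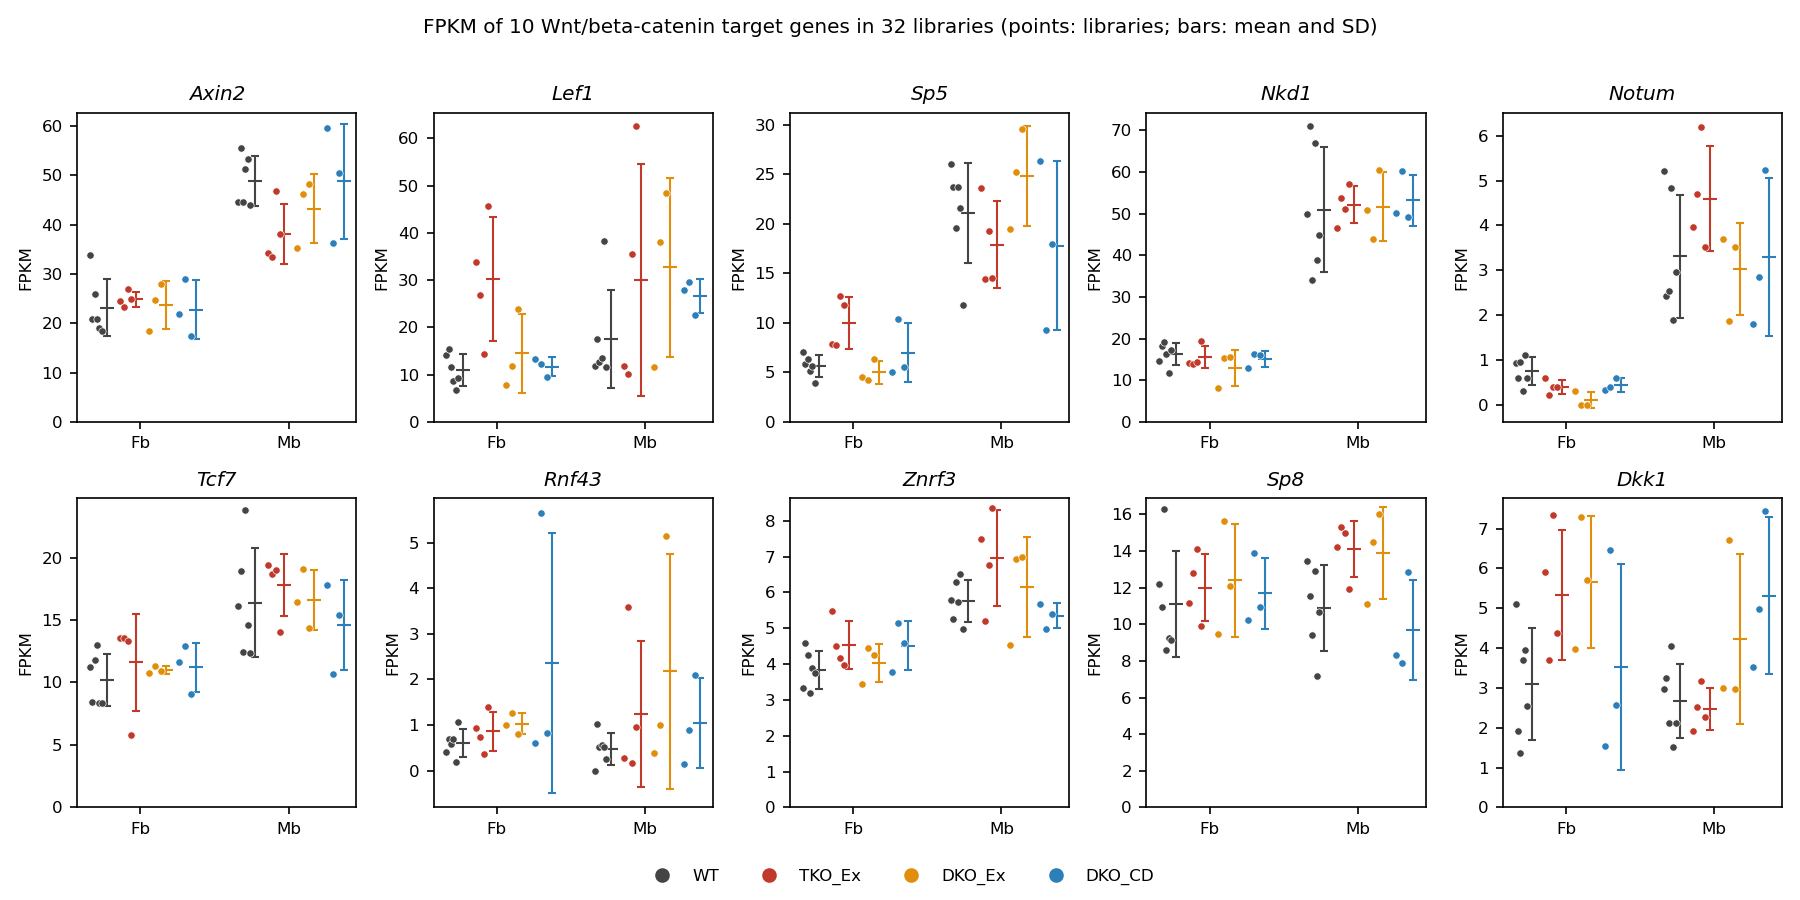
FPKM (y axis) of the 10 targets in each library, with Fb at the left and Mb at the right of each panel and the groups in colour; points are libraries, and bars give the mean and SD of each group. Nkd1, Axin2 and Notum have every Mb library of a group above every Fb library of that group, Sp8 does not, and Lef1 ranges from 10.1 to 62.5 FPKM among the TKO_Ex Mb libraries alone.

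Axin2 and Nkd1 encode feedback inhibitors that act inside the cell, and they had the highest levels of the 10 targets in the Mb. Axin2 (chromosome 11, 108920349 to 108950783, plus strand, GRCm38) is the scaffold of the complex that destroys beta-catenin. Among the 6 WT Fb libraries it ranged from 18.4 to 33.8 FPKM (median 20.8), and among the 6 WT Mb libraries from 44.1 to 55.6 (median 48.0). Every WT Mb library was thus above every WT Fb library, and the means were 48.9 ± 5.12 and 23.2 ± 5.85 FPKM (SD, n = 6 each), a 2.11-fold ratio. The difference was 1.07 (SE 0.14, 95% interval 0.78 to 1.37, adjusted p = 0.000159). In TKO_Ex, Axin2 stood at 24.6, 23.3, 27.0 and 24.9 FPKM in the Fb and at 34.2, 33.4, 46.8 and 38.1 in the Mb. Here too the tissues did not overlap, but the difference was smaller in value, at 0.58 (0.30 to 0.86, adjusted p = 0.041). That call was lost when any of the 8 TKO_Ex libraries was left out (adjusted p 0.0575 to 0.119). It was also lost with replicate numbers blocked (0.0566) and with no filter on low values (0.0561). With replicate 3 left out of both tissues the difference was 0.52 (adjusted p = 0.115). In DKO_Ex the values were 18.4, 24.8 and 27.9 in the Fb and 35.2, 46.3 and 48.3 in the Mb. The difference of 0.85 had an adjusted p of 0.0788, and of 0.0334 once replicate numbers were blocked. In DKO_CD they were 22.0, 29.1 and 17.4 in the Fb and 59.7, 36.4 and 50.4 in the Mb (1.07, adjusted p = 0.161).

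Nkd1 (chromosome 8, 88521354 to 88594884, plus strand), whose protein binds Dishevelled, was the target called in all 4 groups. It lies 10.4 megabases before the nearer end of Cdh8, which is among the deleted genes. In WT it ranged from 11.8 to 19.2 FPKM in the Fb (median 16.7) and from 34.0 to 71.0 in the Mb (median 47.5). TKO_Ex libraries were at 14.2, 13.8, 14.4 and 19.4 in the Fb and at 46.5, 53.8, 51.2 and 57.0 in the Mb. DKO_Ex libraries were at 8.05, 15.4 and 15.6 against 50.8, 44.0 and 60.4, and DKO_CD libraries at 13.0, 16.4 and 16.2 against 50.2, 60.2 and 49.1. In no group did the tissues overlap. The differences were 1.56 in WT (95% interval 1.17 to 1.94, adjusted p = 7.25e-05), 1.70 in TKO_Ex (1.40 to 1.99, 0.000165), 1.95 in DKO_Ex (1.35 to 2.56, 0.011) and 1.75 in DKO_CD (1.41 to 2.08, 0.0043). The DKO_Ex call was lost without DKO_Ex Mb replicate 1 (adjusted p = 0.0537) or replicate 3 (0.0516), and in WT, TKO_Ex and DKO_CD the call held in every alternative run.

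Sp5, Sp8, Tcf7 and Lef1 encode transcription factors. Sp5 (chromosome 2, 70474923 to 70477729, plus strand), a zinc-finger factor of the Sp family, has 1 annotated transcript of 2100 bases. In WT it ranged from 3.94 to 7.06 FPKM in the Fb (median 5.72) and from 11.8 to 26.1 in the Mb (median 22.7). The means were 5.64 ± 1.07 and 21.1 ± 5.03 FPKM (SD, n = 6 each), a 3.74-fold ratio, and the difference of 1.71 (1.33 to 2.09, adjusted p = 2.71e-05) was the largest of the 9 targets tested on the log2(FPKM + 1) scale. By the ratio of means Notum was higher, at 4.41-fold. Every WT Mb library again exceeded every WT Fb library. In DKO_Ex, Sp5 was at 4.5, 4.21 and 6.32 in the Fb and at 19.5, 25.3 and 29.6 in the Mb (2.10, adjusted p = 0.00342). In TKO_Ex it was at 7.88, 7.72, 12.7 and 11.8 in the Fb and at 23.6, 14.4, 19.2 and 14.5 in the Mb, so the tissues stayed apart but closer (0.78, 0.29 to 1.27, adjusted p = 0.122). In DKO_CD the tissues overlapped, with 5.04, 10.4 and 5.49 in the Fb against 26.3, 9.24 and 17.9 in the Mb (1.19, adjusted p = 0.368). DKO_CD replicate 2 had the lowest Mb value and the highest Fb value of its group, and its Fb library is the one with the high surface ectoderm sum. Without that Fb library the difference was 1.48 (adjusted p = 0.30).

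Sp8 (chromosome 12, 118846329 to 118852576, plus strand), a relative of Sp5 that patterns the forebrain and the border of midbrain and hindbrain, did not pass the test in any group. Its 6 WT libraries ranged from 8.59 to 16.3 FPKM in the Fb (median 10.1) and from 7.17 to 13.5 in the Mb (median 11.1). The means were 11.1 ± 2.90 and 10.9 ± 2.34 FPKM (SD, n = 6 each), with a difference of -0.02 (95% interval -0.39 to 0.35, adjusted p = 0.971). Thus a Mb-to-Fb difference of the size seen for Axin2 or Sp5 lies outside the interval for Sp8. Among the mutant groups its differences were -0.27 to 0.22, with adjusted p from 0.617 to 0.821.

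The promoters of 3 targets are shown, Sp5 for its large Mb-to-Fb difference, Axin2 as the target most often used as a readout of the pathway, and Sp8 because it did not pass the test. They are the 250 bases before the RefSeq gene start on GRCm38.p6, written 5′ to 3′, at chr2:70474673-70474922 for Sp5, chr11:108920099-108920348 for Axin2 and chr12:118846079-118846328 for Sp8, all on the plus strand. Capitals mark matches to CTTTGAT, a sequence bound by Tcf/Lef factors, and to the core of it, CTTTG, so that every match of the longer motif is also a match of the shorter. Both strands were searched, and on the other strand the longer motif reads ATCAAAG whereas the core reads CAAAG.
Sp5: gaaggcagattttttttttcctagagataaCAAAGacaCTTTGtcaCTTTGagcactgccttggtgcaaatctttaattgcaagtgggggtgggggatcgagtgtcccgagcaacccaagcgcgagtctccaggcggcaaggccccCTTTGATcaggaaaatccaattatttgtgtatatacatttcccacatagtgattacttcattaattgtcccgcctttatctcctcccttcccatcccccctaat
Axin2: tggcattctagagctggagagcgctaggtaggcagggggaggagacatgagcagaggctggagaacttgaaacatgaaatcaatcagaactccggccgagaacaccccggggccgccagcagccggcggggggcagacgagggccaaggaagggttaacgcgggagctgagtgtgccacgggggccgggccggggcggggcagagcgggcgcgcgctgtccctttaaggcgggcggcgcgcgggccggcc
Sp8: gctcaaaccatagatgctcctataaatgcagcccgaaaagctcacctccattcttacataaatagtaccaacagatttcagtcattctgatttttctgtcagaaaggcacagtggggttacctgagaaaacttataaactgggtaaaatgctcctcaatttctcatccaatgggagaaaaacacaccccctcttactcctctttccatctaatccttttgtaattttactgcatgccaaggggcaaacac
CTTTGAT was found in 872 of 27025 promoters of that length (3.23%), and in 1 of the 8 targets with a promoter in the RefSeq table, Sp5, where it lies 104 bases before the start. CTTTG was found in 48.8% of promoters and in 3 of the 8 targets (4 matches in Sp5, 4 in Dkk1 and 1 in Lef1). A match is a string of letters in this window and not a bound site, and the enhancers of these genes were not looked at.

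Tcf7 and Lef1 are DNA-binding partners of beta-catenin. Tcf7 (chromosome 11, 52252371 to 52283014, minus strand) ranged from 8.33 to 13.0 FPKM in WT Fb (median 9.82) and from 12.4 to 23.8 in WT Mb (median 15.3). The ranges overlapped between 12.4 and 13.0, and the difference was 0.62 (0.26 to 0.98, adjusted p = 0.0368). This call was lost in 10 of 18 alternatives, among them no filter on low values (adjusted p = 0.0622), replicate 5 of both tissues left out (0.111) and leaving out any of WT Fb replicates 1, 2, 5 and 6 or Mb replicates 1, 2, 4 and 5 (0.0506 to 0.083). In TKO_Ex it stood at 13.6, 13.5, 13.3 and 5.79 in the Fb and at 19.4, 18.7, 19.0 and 14.0 in the Mb (0.64, adjusted p = 0.326). In DKO_Ex the 3 Fb libraries lay between 10.7 and 11.3 and the 3 Mb libraries between 14.4 and 19.1 (0.55, adjusted p = 0.118), and in DKO_CD the Fb ran from 9.11 to 12.9 and the Mb from 10.7 to 17.8 (0.34, adjusted p = 0.705).

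Lef1 (chromosome 3, 131110471 to 131224356, plus strand) varied most between libraries of the same group. Its pooled SD within the 8 groups was 0.71 on the log2 scale, and 92.4% of 13441 genes had a smaller value. In WT it ranged from 6.8 to 15.5 FPKM in the Fb (median 10.5) and from 11.6 to 38.3 in the Mb (median 13.0), and the 38.3 was replicate 5, the library with few midbrain markers. The next highest WT Mb library was at 17.5. In TKO_Ex the values were 33.8, 26.8, 14.4 and 45.7 in the Fb and 11.8, 10.1, 35.6 and 62.5 in the Mb. In DKO_Ex they were 7.76, 11.9 and 23.9 against 11.7, 38.0 and 48.4. DKO_CD was the only group of the 4 whose tissues did not overlap for Lef1, with 13.4, 12.2 and 9.58 in the Fb and 27.8, 29.6 and 22.7 in the Mb (1.12, 0.72 to 1.53, adjusted p = 0.0565). The difference in WT was 0.54 (-0.05 to 1.13, adjusted p = 0.29), and 0.18 with replicate 5 of both tissues left out. GENCODE M21 gives Lef1 8 transcripts of 345 to 3656 bases, and how fragments were shared among them enters a gene's FPKM.

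Notum, Dkk1, Znrf3 and Rnf43 encode inhibitors that act outside the cell or at its surface. Notum (chromosome 11, 120653788 to 120661175, minus strand), an enzyme that removes the lipid Wnt proteins need for activity, had a mean under 1 FPKM in the Fb of all 4 groups. In WT it ranged from 0.30 to 1.12 FPKM in the Fb (median 0.766) and from 1.89 to 5.22 in the Mb (median 2.75). TKO_Ex libraries were at 0.59, 0.21, 0.40 and 0.39 in the Fb and at 3.97, 4.69, 6.20 and 3.52 in the Mb. DKO_Ex libraries were at 0.30, 0 and 0 against 3.70, 1.86 and 3.53, and DKO_CD libraries at 0.32, 0.39 and 0.60 against 1.80, 2.85 and 5.23. Every Mb library of a group was above every Fb library of that group. The differences were 1.26 in WT (0.79 to 1.73, adjusted p = 0.00193), 1.99 in TKO_Ex (1.49 to 2.48, 0.00164), 1.85 in DKO_Ex (1.11 to 2.59, 0.0293) and 1.51 in DKO_CD (0.68 to 2.33, 0.175). The DKO_Ex call was lost when replicate numbers were blocked (0.0651), with a pseudocount of 0.1 (0.0606) and without any of the 3 Fb libraries or Mb replicates 1 and 3 (0.0669 to 0.139). At the estimated depth these levels stand for about 0 to 6 fragments per Fb library and 10 to 27 per Mb library.

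Znrf3 and Rnf43 are related membrane ubiquitin ligases that remove Frizzled receptors. Znrf3 (chromosome 11, 5276324 to 5444847, minus strand) had the smallest spread of the 10 targets, with a pooled SD of 0.18. In WT it ranged from 3.19 to 4.59 FPKM in the Fb (median 3.81) and from 4.97 to 6.53 in the Mb (median 5.76), with no overlap, and the difference was 0.49 (0.25 to 0.72, adjusted p = 0.0133). That call was lost with replicate 5 of both tissues left out (0.46, adjusted p = 0.0559). The differences in the mutants were 0.51 in TKO_Ex, 0.49 in DKO_Ex and 0.21 in DKO_CD, with adjusted p of 0.214, 0.354 and 0.785. Rnf43 (chromosome 11, 87662722 to 87735539, plus strand) was at 0.18 to 1.07 FPKM in WT Fb (median 0.641) and at 0 to 1.02 in WT Mb (median 0.51). A few mutant libraries lay far above the others, at 5.66 in DKO_CD Fb replicate 2, which stands apart by its markers, 5.13 in DKO_Ex Mb replicate 3 and 3.58 in TKO_Ex Mb replicate 2. Rnf43 has 9 annotated transcripts, the shortest of 364 bases.

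Dkk1 (chromosome 19, 30545863 to 30549665, minus strand), a secreted protein that blocks the Lrp co-receptors, was the target with the lowest WT Mb level of those tested. In WT it ranged from 1.38 to 5.11 FPKM in the Fb (median 3.11) and from 1.52 to 4.06 in the Mb (median 2.54), with a difference of -0.12 (-0.65 to 0.40, adjusted p = 0.843). In TKO_Ex it was at 5.90, 3.69, 7.34 and 4.39 in the Fb and at 1.91, 2.52, 3.17 and 2.27 in the Mb. Every Fb library lay above every Mb library, which held for no other target in any group and for 4.27% of all genes in TKO_Ex. That difference of -0.85 (-1.35 to -0.34) had an unadjusted p of 0.00409 and an adjusted p of 0.10. In DKO_Ex the difference was -0.39 (adjusted p = 0.673) and in DKO_CD 0.59 (adjusted p = 0.748).

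Counted over the groups, the targets called higher in the Mb were 6 of 9 in WT, 3 of 10 in TKO_Ex (Axin2, Nkd1 and Notum), 3 of 10 in DKO_Ex (Sp5, Nkd1 and Notum) and 1 of 10 in DKO_CD (Nkd1), and none was called lower. The shares of all genes called higher were 1.54% in TKO_Ex, 1.66% in DKO_Ex and 0.224% in DKO_CD. With replicate 5 of WT and replicate 3 of TKO_Ex left out, the counts were 4 in WT and 2 in TKO_Ex, and without DKO_Ex Mb replicate 1, or without Mb replicate 3, the count in DKO_Ex was 1. The groups have unequal numbers of libraries, and these counts do not show that the groups differ, which is tested further down. Mb libraries lay above all Fb libraries for 5 of 10 targets in WT, 5 in TKO_Ex, 6 in DKO_Ex and 4 in DKO_CD, against 3.36%, 4.67%, 12.6% and 7.34% of all genes tested. Notum is in each of these counts without overlap, and in the counts of calls in WT, TKO_Ex and DKO_Ex. It passed the filter only through its level in the Mb, so its place in the counts partly follows from the filter.

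**Figure D2:**
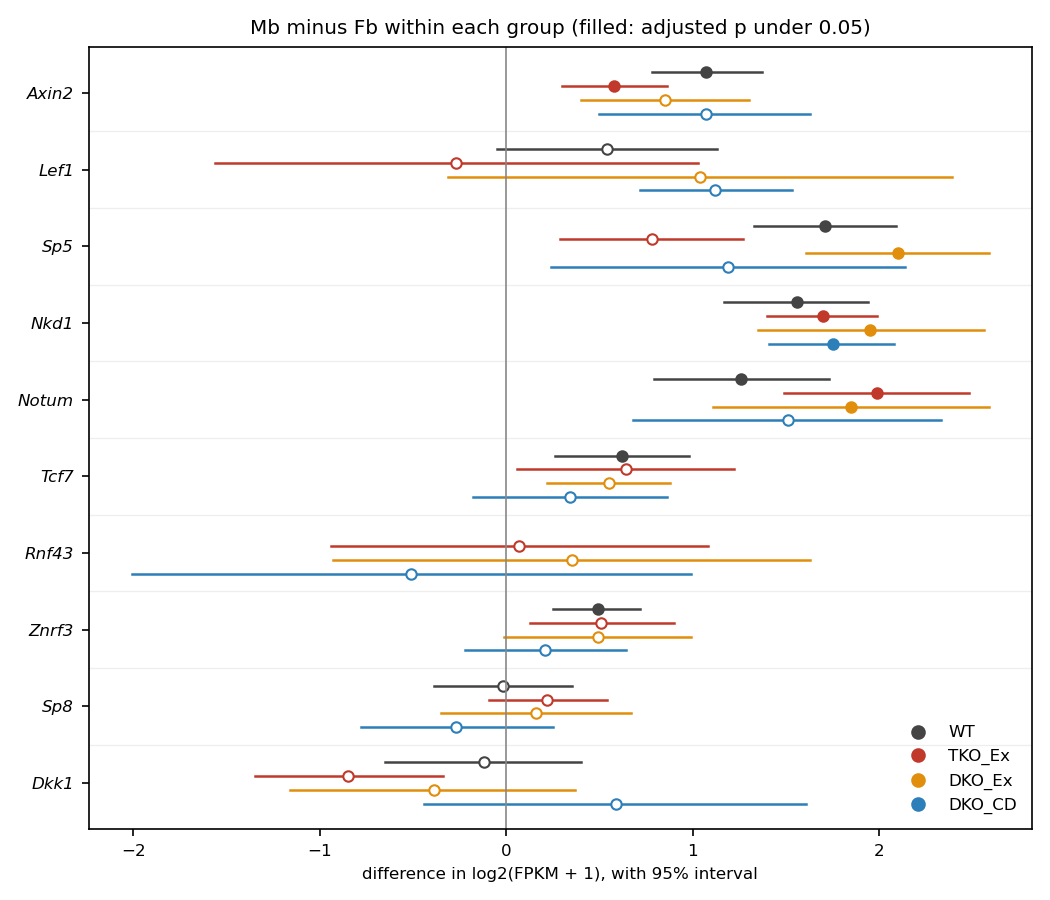
Difference between Mb and Fb in log2(FPKM + 1) for each target (rows) in the 4 groups (colours), with 95% intervals; filled points have an adjusted p under 0.05, and Rnf43 was not tested in WT. Nkd1 is filled in all 4 groups, and the intervals of Sp8 span 0 in all 4.

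Ordered by mean level in WT Mb, Nkd1 (50.9 FPKM) and Axin2 (48.9) came first, then Sp5 (21.1), Lef1 (17.6) and Tcf7 (16.4), then Sp8 (10.9), Znrf3 (5.76), Notum (3.31), Dkk1 (2.67) and Rnf43 (0.474). Nkd1 and Axin2 lay within each other's SD (15 and 5.12). Sp5, Lef1 and Tcf7 lay within the SD of Sp5 (5.03), and Notum and Dkk1 within that of Notum (1.38). Without replicate 5, which holds the highest Lef1 value, the mean of Lef1 was 13.4, below the 16.7 of Tcf7. In WT Fb the order was Axin2 (23.2), Nkd1 (16.3), Sp8 (11.1), Lef1 (11), Tcf7 (10.2), Sp5 (5.64), Znrf3 (3.83), Dkk1 (3.10), Notum (0.75) and Rnf43 (0.61). Sp8, Lef1 and Tcf7 were not separated there beyond their SDs of 2.90, 3.36 and 2.07, nor were Znrf3 and Dkk1 beyond the SD of Dkk1 (1.40), and Notum and Rnf43 changed places without replicate 5 (0.677 and 0.691).

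The genes most like Axin2 over the 32 libraries, by Pearson correlation of log2(FPKM + 1) among 11618 protein-coding genes, were Stmn2 (0.924), Kcna5 (0.922), Tal2 (0.922), Hes5 (0.91) and Wnt1 (0.909). Among the other targets Sp5 ranked 16th (0.891) and Nkd1 63rd (0.86). Notum (0.752), Tcf7 (0.71) and Znrf3 (0.695) ranked between 262 and 373, Lef1 was at 0.461, and Sp8, Dkk1 and Rnf43 were between -0.029 and 0.119. The 32 libraries share 2 tissues and 4 groups, so the step between Fb and Mb enters these values, which are given as a description.

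Beside the targets, 76 other genes of the pathway were read in the same fits, and 66 of them were tested. In WT 15 were higher and 15 lower in the Mb, against 4.66% and 3.6% of all genes, with a median of 0.02. Without replicate 5 in both tissues 26 were called. Of 12 ligands tested 6 were higher and 3 lower, and of 12 receptors 2 were higher and 6 lower. Wnt1 (3.09, 1.29 ± 0.788 FPKM in Fb and 17.9 ± 4.2 in Mb), Wnt3a (1.72), Wnt3 (1.40), Wnt9a (1.09), Wnt5a (0.80) and Wnt4 (0.64) were higher in the Mb, and Wnt8b (-3.24), Wnt7b (-2.75) and Wnt5b (-0.96) were lower. Without replicate 5 the calls of Wnt9a (0.82, adjusted p = 0.0612) and Wnt4 (0.52, 0.0808) were lost. Wnt1 is also among the 7 midbrain markers. Wnt7b, a ligand of the telencephalon, was at 24.2 ± 4.43 FPKM in WT Fb and at 3.04 ± 2.09 in WT Mb (SD, n = 6 each). Among receptors Fzd10 (3.01, from 5.31 ± 1.12 to 49.7 ± 7.68 FPKM) and Fzd9 (0.92) were higher in the Mb, whereas Fzd5 (-2.38), Fzd4 (-1.69), Fzd8 (-1.69), Fzd2 (-0.92), Lrp5 (-0.62) and Fzd1 (-0.59) were lower, of which the Lrp5 call was lost without replicate 5 (-0.59, adjusted p = 0.0848). Wls (1.27), which carries Wnt proteins to the cell surface, was higher in the Mb, and the agonists Rspo2 (-1.13) and Rspo3 (-1.37) were lower.

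Of the remaining lists, Frzb (0.94), a secreted Wnt-binding protein, was higher in the Mb and Shisa2 (-3.19), which holds back Frizzled receptors, was lower. The cytoplasmic core, which includes Ctnnb1 (beta-catenin), Axin1, Apc and Gsk3b, had 1 call among 11 genes, Apc2 (1.14), and its lowest value was -0.10. Among nuclear partners Pygo1 (0.46) was higher, and the repressor Tcf7l1 (-0.84) and the co-repressor Tle1 (-0.53) were lower. Among other targets Apcdd1 (2.16, from 18.4 ± 2.74 to 86.1 ± 12.7 FPKM), Tnfrsf19 (0.86) and the cyclin Ccnd1 (0.45) were higher in the Mb, and Myc (-0.61) was lower. The calls of Pygo1 (0.45, adjusted p = 0.108) and Myc (-0.53, 0.157) were lost without replicate 5. In TKO_Ex 8 of 66 genes were called higher and 11 lower (19 in all, and 10 without replicate 3). In DKO_Ex 6 were higher and 8 lower (14 in all, and 9 without Fb replicate 2). In DKO_CD 0 were higher and 3 lower, and the number called was 1, 5 and 0 without Fb replicates 1, 2 and 3 in turn and 5 without Mb replicate 1. Over all 13477 genes tested in TKO_Ex, 207 were called higher and 182 lower. The same counts were 221 and 123 of 13314 genes in DKO_Ex, and 30 and 38 of 13415 in DKO_CD. Surface ectoderm and mesenchyme markers also differed between the tissues of WT, with 5 of 5 and 4 of 6 tested markers lower in the Mb, and their part in the pathway genes was not tested.

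**Figure D3:**
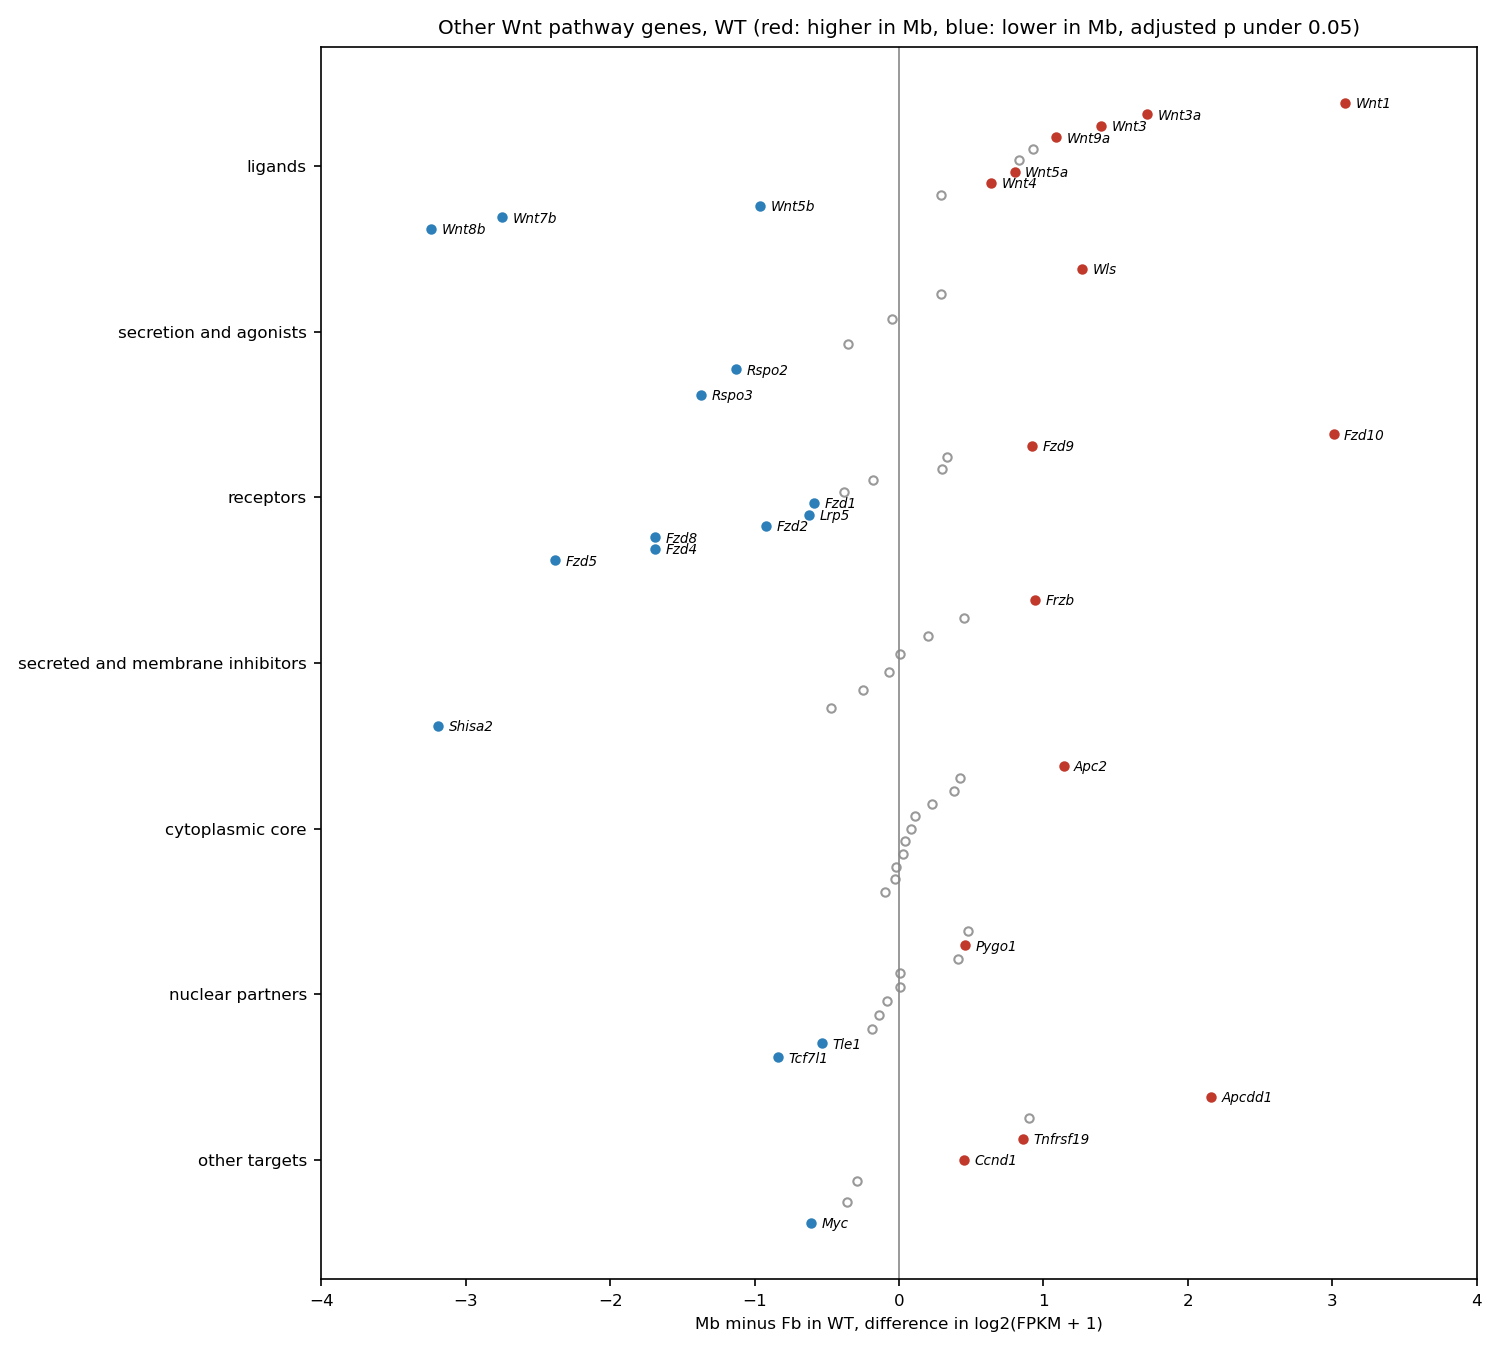
Difference between WT Mb and WT Fb in log2(FPKM + 1) (x axis) for the 66 tested pathway genes, grouped by role (y axis, spread vertically only for legibility); named red and blue points have an adjusted p under 0.05. Ligands reach 3.09 and -3.24 and receptors lie within that range, whereas the cytoplasmic core lies between -0.10 and 1.14.

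The mutants were then compared with WT of the same tissue. No target passed the adjusted threshold in any of the 6 comparisons. In the Mb 0 of 9 were called in TKO_Ex, 0 of 10 in DKO_Ex and 0 of 9 in DKO_CD, where 0.0898%, 0.0903% and 0.0375% of all genes were called. In the Fb 0 of 8, 0 of 8 and 0 of 9 were called, against 0.0603%, 0.0759% and 0.0378%. At an unadjusted p under 0.05 there were 2, 0 and 1 targets in the Mb (8.38%, 5.46% and 6.69% of all genes) and 3, 1 and 0 in the Fb (8.66%, 7.01% and 8.44%). None of the other pathway genes tested was called in these 6 comparisons either (64 or 65 tested in each). With so few calls over all genes, a p that misses the threshold does not show that a target was level, and the intervals are given for that reason.

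In the TKO_Ex Mb the target with the smallest unadjusted p was Axin2, whose 4 values of 34.2, 33.4, 46.8 and 38.1 FPKM stood against 44.1 to 55.6 in WT, so that 3 of 4 were below every WT library. The library above the lowest WT one was replicate 3. The difference was -0.36 (-0.61 to -0.10, unadjusted p = 0.00983), with an adjusted p of 0.435 and a range of 0.29 to 0.751 over the alternatives. For Axin2, leaving out TKO_Ex replicate 3 and WT replicate 5 gave -0.43 (adjusted p = 0.448). The 7 midbrain markers summed to 149 to 202 in these TKO_Ex libraries and to 36.5 to 219 in WT Mb. Sp8 differed by 0.37 (0.01 to 0.72, adjusted p = 0.586). For Nkd1 the intervals in the Mb of the 3 mutant groups ran from -0.45 to 0.60, and for Znrf3 from -0.38 to 0.53. Lef1 differed by 0.51 in TKO_Ex (-0.57 to 1.59) and by 0.78 in DKO_Ex (-0.24 to 1.80). In DKO_CD it differed by 0.71 (-0.02 to 1.43, unadjusted p = 0.0568, adjusted p = 0.766). The DKO_CD Mb libraries were at 27.8, 29.6 and 22.7 FPKM of Lef1. WT replicate 5 was at 38.3 and the next WT library at 17.5. With a library left out the DKO_CD difference was 0.62 to 0.95, at adjusted p of 0.259 or more. Dkk1 in DKO_CD Mb was at 3.53, 4.98 and 7.43 against 1.52 to 4.06 in WT, a difference of 0.77 (0.18 to 1.36, unadjusted p = 0.015, adjusted p = 0.614). In the same libraries the 6 mesenchyme and neural crest markers, none at 0, summed to 85.3 to 146 against 53.6 to 96.6 in WT Mb, and 6 of 6 differed by a positive value (median 0.60). The 6 surface ectoderm markers summed to 20.3 to 70.7 against 23.5 to 36.5, with 4 of 4 tested positive (median 0.55) and 1 at 0 in replicate 1. The part of these tissues in the Dkk1 value was not tested.

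In the TKO_Ex Fb, Lef1 and Sp5 had the largest differences. Lef1 was at 33.8, 26.8, 14.4 and 45.7 FPKM, and all but the library labelled replicate 3 lay above the highest WT Fb library (15.5). The difference was 1.31 (0.66 to 1.97, unadjusted p = 0.00105), with an adjusted p of 0.214 and a range of 0.076 to 0.614 over the alternatives. Without TKO_Ex replicate 3 and WT replicate 5 it was 1.5 (adjusted p = 0.119). Sp5 was at 7.88, 7.72, 12.7 and 11.8 against 3.94 to 7.06 in WT, so all 4 lay above all 6. It was the only target whose TKO_Ex and WT libraries did not overlap in the Fb and lay higher, against 1.42% of all genes. The difference was 0.72 (0.32 to 1.12, unadjusted p = 0.00211), and the adjusted p was 0.246, with 0.253 to 0.633 over the alternatives and 0.521 (difference 0.61) without the same libraries. Dkk1 differed by 0.67 (0.06 to 1.27, adjusted p = 0.53).

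Some marker sums of other tissue were higher in these libraries and others were lower. The 7 midbrain and isthmus markers summed to 31.1 to 47.5 FPKM in TKO_Ex Fb and to 15.7 to 31.5 in WT Fb. Of these markers, En1 and En2 were listed at 0 in 2 and 3 of the 4 TKO_Ex Fb libraries and at most 0.461 in the others. In WT Fb they were at 0 in 1 and 3 of 6, and at most 0.936. Fgf8 (20.02 to 38.9 against 7.39 to 22.5) made up most of the TKO_Ex sum. Wnt1 was at 1.92 to 4.42 against 0.203 to 2.30. Pax2, Pax5 and Pax7 are the rest of the list, and their values are not shown here. In WT Mb Fgf8 was at 0 to 24.6 FPKM, where the 0 was replicate 5, so its level overlapped with that of WT Fb. The 6 surface ectoderm markers, of which none was at 0, summed to 89.9 to 227 in TKO_Ex Fb and to 58.7 to 96.8 in WT Fb, and 4 of the 6 had an unadjusted p under 0.05, with none called. The 6 mesenchyme and neural crest markers went the other way, at 90.2 to 134 in TKO_Ex Fb and 123 to 168 in WT Fb (medians 123.5 and 145). The 4 endothelium markers summed to 14.8 to 30.6 and to 21.7 to 29.2 (medians 23.85 and 27.75). Replicates 3 and 4, the TKO_Ex Fb libraries with the highest Sp5, had surface ectoderm sums of 168 and 227 and the lowest forebrain sums of the group, 217 and 169. Lef1 was highest of the group in replicate 4 (45.7 FPKM) but lowest in replicate 3 (14.4). The part of these tissues in the Sp5 and Lef1 values was not tested.

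In the Fb of DKO_Ex, Notum was at 0.30, 0 and 0 FPKM against 0.30 to 1.12 in WT, below every WT library by a narrow margin, where 2.25% of all genes tested lay lower without overlap. Notum did not reach the minimum for a test there, so it is not among the genes behind that share. No share was taken among genes as low as Notum, and its levels stand for a handful of fragments. Dkk1 in DKO_Ex Fb, at 3.97, 7.30 and 5.72, differed from WT by 0.74 (0.06 to 1.43, unadjusted p = 0.0351, adjusted p = 0.664). Axin2 in the Fb differed from WT in the 3 mutant groups by 0.13, 0.04 and -0.02, with intervals within -0.48 and 0.49.

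**Figure D4:**
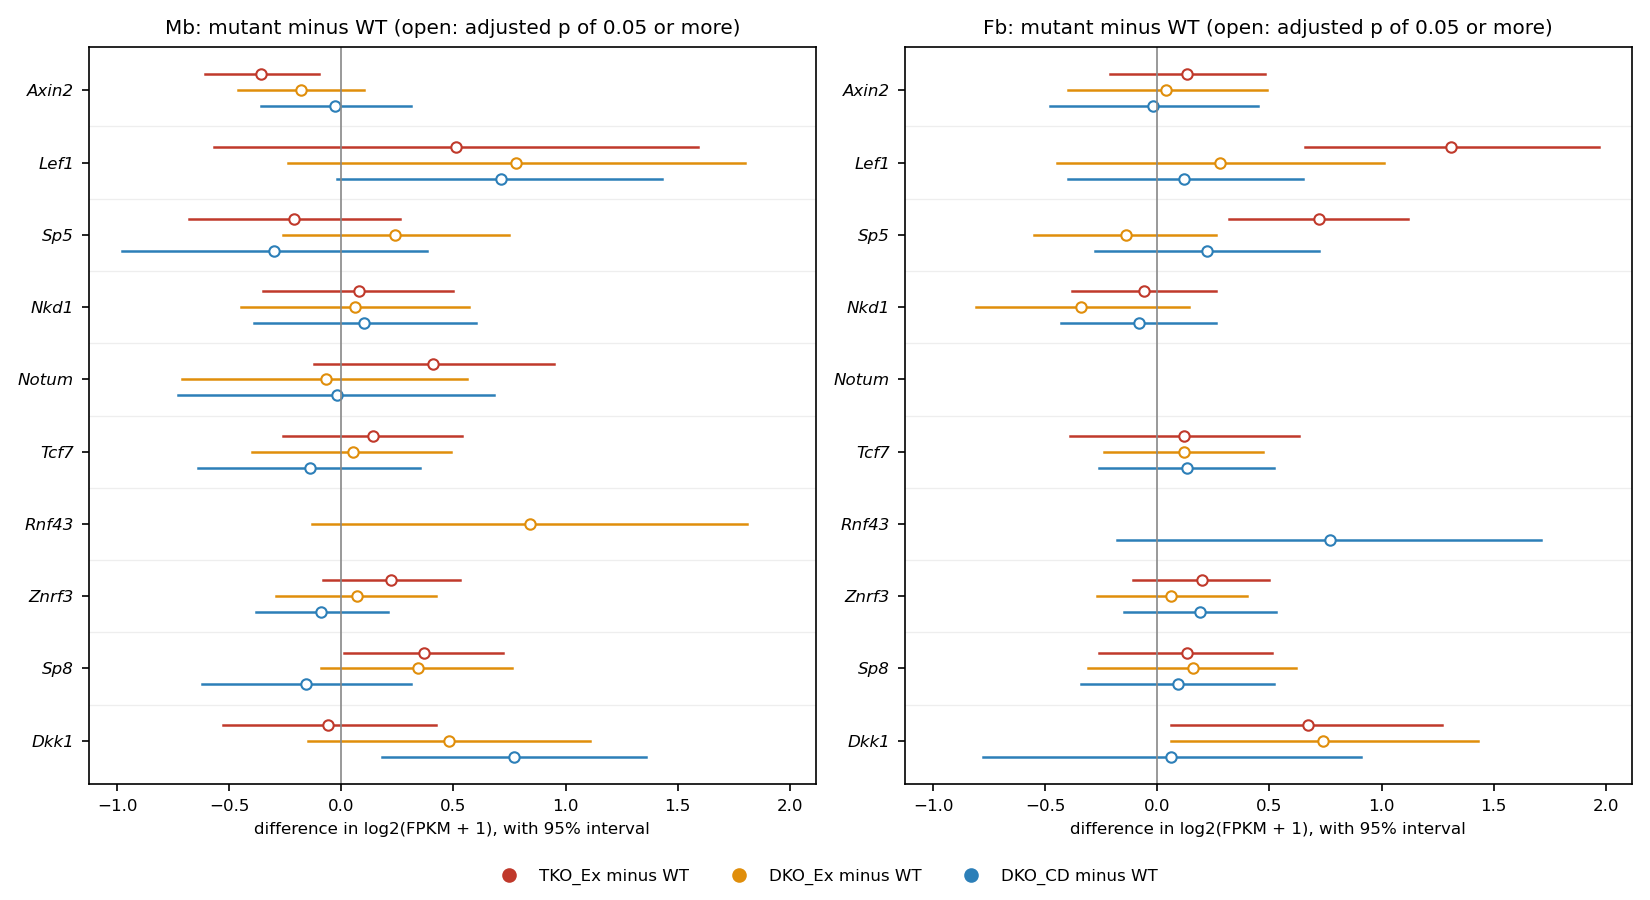
Difference between each mutant group and WT in log2(FPKM + 1) for each target (rows), in the Mb (left) and Fb (right), with 95% intervals; all points are open because no adjusted p was under 0.05, and missing points were too low to test. In the Mb the TKO_Ex interval of Axin2 (-0.61 to -0.10) lies below 0, and in the Fb those of Lef1 (0.66 to 1.97) and Sp5 (0.32 to 1.12) lie above it.

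Whether a mutant effect differed between the tissues was tested as an interaction. None of 9 targets was called in TKO_Ex, DKO_Ex or DKO_CD, where 0.0149%, 0% and 0.00746% of all genes were. In TKO_Ex 3 targets had an unadjusted p under 0.05 (6.5% of all genes). These were Sp5 (-0.93, -1.53 to -0.33, adjusted p = 0.653), Axin2 (-0.49, -0.90 to -0.08, adjusted p = 0.737) and Notum (0.73, 0.08 to 1.37, adjusted p = 0.745). For Sp5 and Axin2 the step from Fb to Mb was thus smaller in value in TKO_Ex than in WT, and for Notum larger, and none of these differences passed the test. Without TKO_Ex replicate 3 and WT replicate 5 they were -0.85, -0.48 and 0.44. Notum had Fb means of 0.75 FPKM in WT and 0.397 in TKO_Ex and entered this fit through its Mb level. Its place among the 3 targets thus partly follows from the filter. In DKO_Ex and DKO_CD no target had an unadjusted p under 0.05 (3.88% and 4.83% of all genes).

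The DKO groups, with and without exencephaly, were also compared directly. Of the targets 0 of 10 were called in the Mb and 0 of 9 in the Fb, against 0.045% and 0.00753% of all genes, and none had an unadjusted p under 0.05 (6.48% and 5.54%). In the Mb Sp8 was at 11.1, 14.5 and 16 FPKM in DKO_Ex and at 8.34, 7.90 and 12.9 in DKO_CD, a difference of 0.49 (-0.03 to 1.01, adjusted p = 0.778). Nkd1 differed by -0.04 (-0.39 to 0.30) and Axin2 by -0.16 (-0.64 to 0.33), whereas the interval of Lef1 ran from -1.04 to 1.19.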

How the data were processed

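FPKM per gene was measured in 32 libraries. From strand-specific libraries, the authors mapped reads with TopHat2 (GRCm38), and the deposited FPKM came from Cufflinks, which divides by transcript length and library size. Versions and the annotation are not given in the sources used here. The submitters' notes also name HTSeq and DESeq2, whose counts were not used. FPKM of 65 repeated identifiers were summed. Of 48576 identifiers, 48132 were found in GENCODE M21 (GRCm38). Depth came from the spacing of low FPKM in 769 genes with 1 transcript of at least 4000 bases. Per library 87.1% to 94.2% of these values lay within 0.1 of a whole number of fragments, and intervals cover the spread between libraries only.

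Differences were tested with limma 3.58.1 (R 4.3.3; eBayes with trend) on log2(FPKM + 1), over genes averaging 1 FPKM or more in the fit, with a separate fit per comparison and Benjamini-Hochberg adjustment over all genes tested. The model and the depth estimate were also run on simulated data. The simulation for the model used the same setting of spread for every gene. It therefore does not test how the calls behave at the spread of these libraries. The members and lists were chosen with earlier results of these data known. Named were the 10 targets, the pathway genes past the threshold, the 5 genes most like Axin2 and the deleted cadherins. Replicate numbers come from the sample titles. Over the 16 same-numbered Fb and Mb pairs, deviations from the group means correlated at -0.006 to 0.2. Only in DKO_Ex was every pair over 0.1, so blocked values are given there, and elsewhere where the block lost a call. Alternatives were a pseudocount of 0.1, no filter, median-of-ratios scaling, 1 fit over all libraries, grouping of DKO files by record, a replicate block and leaving out each library. Leaving out replicate 3 of TKO_Ex and 5 of WT together was added after seeing the data. Of the marker genes, 1 is not reported here. Promoters are from RefSeq (GRCm38.p6).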

Additional observations from a re-analysis of the deposited data

Results flagged for a closer look

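Within groups of 4 or 6 libraries, 4 values of the targets stood far from the rest of their group by Dixon's criterion, out of 40 groups looked at (groups of 3 are not tested), where chance gives about 1 in 20. Lef1 was at 38.3 FPKM in WT Mb replicate 5, with the next library at 17.5. Nkd1 was at 19.4 in TKO_Ex Fb replicate 4, with the next at 14.4. Tcf7 was low in both tissues of TKO_Ex replicate 4, at 5.79 in the Fb (next 13.3) and at 14.0 in the Mb (next 18.7).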

How the results depend on the processing

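Over the alternatives the 10 targets gave 2196 values on the same side of the threshold as the reported one, 35 that lost a call and 8 that gained one, and no called difference changed sign. In the comparisons of mutants with WT, of the DKO groups and of effects between tissues, no target was called in any alternative run. With any library left out the number called was 0 to 0. The replicate block and the grouping of DKO files by record also gave 0. Grouping by record only exchanges the DKO groups, so its 0 was fixed in advance and tests nothing. Between mutants and WT, and between the DKO groups, a shared replicate number joins libraries of different embryos. The block is therefore no check on those comparisons. The counts of values above include both runs.

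The number of targets higher in the Mb was 5 to 6 in WT, 2 to 2 in TKO_Ex, 1 to 3 in DKO_Ex and 1 to 1 in DKO_CD when a library was left out; it fell to 1 in DKO_Ex without Mb replicate 1 or without Mb replicate 3. With the DKO files grouped by record it was 1 in DKO_Ex and 3 in DKO_CD, and with all 32 libraries in 1 fit it was 4 in DKO_CD. The number of other pathway genes called between tissues was 27 to 33 in WT, 13 to 19 in TKO_Ex, 9 to 10 in DKO_Ex and 0 to 5 in DKO_CD with a library left out (14 in DKO_Ex and 3 in DKO_CD with all). It was 3 in DKO_Ex and 14 in DKO_CD by record, 13 in DKO_CD with all 32 libraries in 1 fit, and 10 in TKO_Ex without replicate 3. In TKO_Ex Mb against WT it was 0 to 1 with a library left out (1 without WT Mb replicate 1), and in DKO_CD Fb against WT it was 1 with all libraries in 1 fit. Beyond the grouping by record, which exchanges the DKO groups by construction, the cause of these moves was not tested.

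With the replicate number as a block, 5 targets were called in WT, where Znrf3 was lost (adjusted p = 0.0541), 2 in TKO_Ex, 3 in DKO_Ex and 1 in DKO_CD, and no other count of targets moved. The block gave 27, 15, 12 and 2 other pathway genes. Of the 16 pairs 12 correlated best with their own number. The depth limits Notum, Rnf43 and Dkk1 most, since the median Fb library held about 2, 8 and 23 fragments for them.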
